A study of Homo sapiens with 4 samples.

Results

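Genes of the TGF-beta, BMP and WNT pathways were examined in SK-MEL28 cells, an established human malignant melanoma line, after exposure to electric pulses. The members were chosen by symbol alone, as TGF-beta, activin, inhibin and BMP ligands, their receptors and SMADs, WNT ligands, Frizzled and LRP receptors, secreted Frizzled-related proteins and the cytoplasmic WNT components, and by the names of Notch receptors and ligands. The rule found 30 genes with 1 oligonucleotide each, among 1989 oligonucleotides with a symbol and 3048 in all. Of these, 14 belonged to the TGF-beta and BMP branch and 16 to the WNT branch, and 0 carried a Notch receptor or ligand symbol. The cells were exposed in suspension to ECT pulses (8 pulses of 100 μs at 1300 V/cm and 1 Hz, used for electrochemotherapy) or to EGT pulses (8 pulses of 5 ms at 600 V/cm and 1 Hz, used for electrogene therapy). An aliquot of the same suspension without pulses was the untreated control, and RNA was taken after 16 h in culture. Each of 4 arrays, 2 per pulse type, compared exposed cells (Cy5) with untreated cells (Cy3). For all arrays but ECT array 1 the source label also names cisplatin, which the description of the experiment does not mention.

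TGF-beta, activin and BMP ligands bind pairs of serine/threonine kinase receptors that phosphorylate SMAD proteins, which then enter the nucleus and change transcription. WNT ligands bind a Frizzled receptor together with LRP5 or LRP6. This recruits Dishevelled and restrains the APC, AXIN and GSK3 complex that otherwise marks beta-catenin for degradation. Both pathways act in the melanocyte lineage, where WNT signalling promotes melanocyte specification from the neural crest, and both are often altered in melanoma.

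The ratio of exposed over untreated cells is given as log2 after loess normalization within each array, so 0 is the level of oligonucleotides of like brightness and 0.585 is 1.5-fold. Exposed cells carried Cy5 on every array. A response to the pulses and a difference between the dyes can therefore not be told apart. The untreated RNA was the Cy3 channel of every array, so its variation is part of each ratio and was not estimated apart. Whether the replicate arrays came from separate cultures is not stated in the labels, so the p-values measure only the spread between these arrays, which may be technical. RNA was pooled over all cells of a flask, and the loss of some cells cannot be told apart from less RNA per cell. Median signal over local background of all spots was 1.64 to 2.20 in the exposed channel and 2.21 to 5.38 in the untreated channel. The spots of 7 melanocyte marker genes (MITF, TYR, TYRP1, MLANA, SOX10, S100B and CD63) were measured on all 4 arrays. Those of CD28, CD8A, KRT5, KRT14 and COL3A1, which mark lymphoid cells, keratinocytes and fibroblasts, were measured on all 4 arrays too, and CD4 on none. Of all these markers CD28 alone passed the adjusted threshold, with a mean log2 ratio of -0.79 over both pulse types (adjusted p = 0.0253), and its part in the other results was not tested.

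An oligonucleotide counted as measured on an array when at least 2 of its spots were kept. A kept spot had both channels at 2 times their background or more. It also passed the other spot filters, among them a background SD of at most 0.3 of the signal. By that rule 18 and 13 of the 30 members were measured on the ECT arrays (1 and 2), and 15 and 20 on the EGT arrays. There were 12 members measured on all 4 arrays (40%, against 38.2% of all oligonucleotides and 50.3% of those with a symbol), 8 more on at least 1 array, and 10 on none. By branch these were 4 of 14 TGF-beta and BMP genes and 8 of 16 WNT genes. Fewer members stood above background in the exposed than in the untreated channel, and so did fewer of all oligonucleotides. At least 0.5 of a member's spots reached 2 times background for 20, 17, 15 and 22 members in exposed cells, against 30, 24, 28 and 28 members in untreated cells (in the order ECT arrays 1 and 2, then EGT arrays 1 and 2). Of all oligonucleotides 49.6%, 43.9%, 46.7% and 57.7% did so in exposed cells, against 95%, 57.5%, 73.5% and 74.1% in untreated cells.

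**Figure D1:**
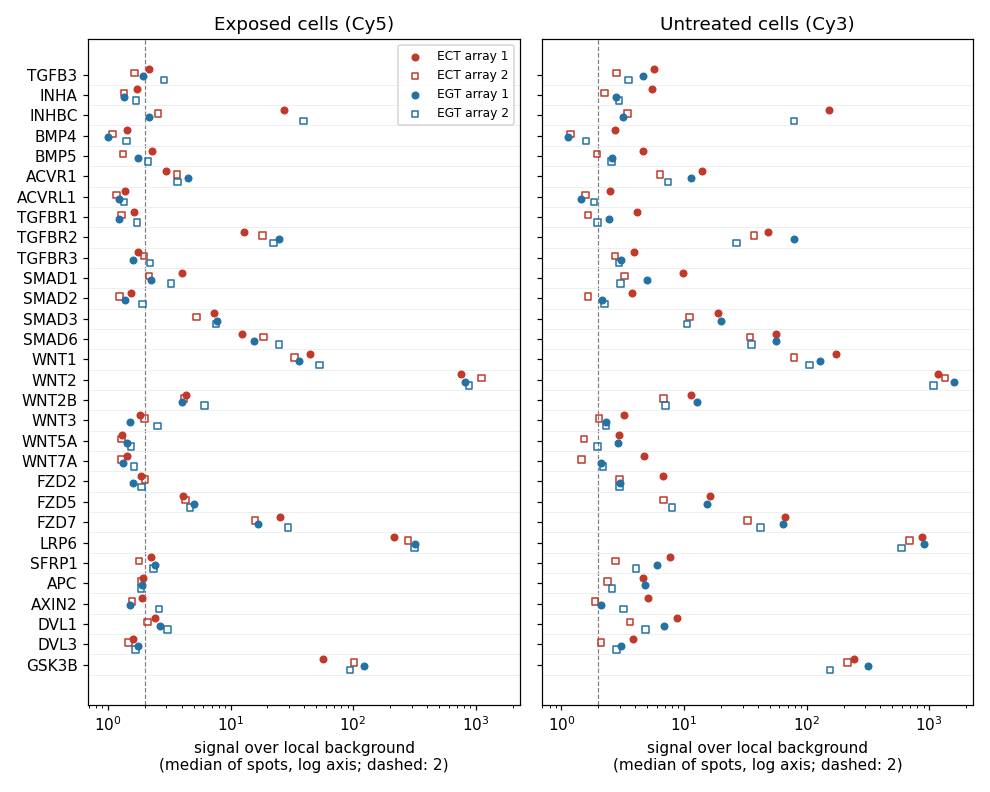
Signal over local background (log axis, median of the spots) of all 30 pathway oligonucleotides in exposed cells (Cy5, left) and untreated cells (Cy3, right), with 1 point per array and the dashed line at 2. WNT2 and LRP6 stand far above the rest in both channels, most ligands lie near the line, and INHBC is bright on ECT array 1 and EGT array 2 only.

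The 10 members measured on no array were INHA, BMP4, ACVRL1, TGFBR1, SMAD2, WNT3, WNT5A, WNT7A, FZD2 and DVL3. Their signal over background had a median of 1.46 (1.00 to 2.53) in exposed cells and 2.30 (1.13 to 6.75) in untreated cells. They include the type I receptor of TGF-beta (TGFBR1), the TGF-beta SMAD SMAD2 and WNT5A, the ligand of beta-catenin-independent signalling. These oligonucleotides were not well above background in exposed cells, though some were in untreated cells (FZD2 at 2.97 to 6.75 times). Too few of their spots passed the filters on both channels, so no ratio was taken for them. This does not show that the genes were not expressed.

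Of the TGF-beta and BMP ligands, TGFB3 was measured on ECT array 1 (0.06) and EGT array 2 (0.10), and BMP5 on EGT array 2 alone (0.07). Neither had a value on both arrays of a pulse type. INHBC, the activin beta C subunit, had log2 ratios of -0.58 and 0.20 with ECT pulses, and -0.46 on EGT array 2. These 3 values lie on both sides of 0, and the 2 ECT arrays differ by more than those of any other member (SD 0.55).

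INHBC also stood apart in its signal. Its median spot intensity in exposed cells was 490 and 46.0 after ECT pulses (arrays 1 and 2) and 35.5 and 608 after EGT pulses, against 2260, 46.5, 36.0 and 1060 in untreated cells on the same arrays. The gene was thus bright on ECT array 1 and EGT array 2 in both channels, and close to background on the other two, although the untreated cells had the same label throughout. Its signal over background on the dimmer of those 2 arrays was 10.7 times that on the brighter of the other two in exposed cells and 22.7 times in untreated cells. For the other members the same ratio was at most 1.52 in either channel. Over all 3048 oligonucleotides, 9 had a ratio of at least 5 in both channels, and 0 had it the other way round (the comparison was chosen after the values of INHBC were seen).

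The receptors gave small ratios with no shared direction. ACVR1, a type I receptor of BMPs and activins, had -0.23 and 0.08 with ECT pulses, and 0.11 and -0.20 with EGT pulses. TGFBR2, the receptor that binds TGF-beta first, had 0.09 and 0.24 with ECT pulses, and -0.03 and 0.24 with EGT pulses. For both genes the arrays of a pulse type spread as widely as the pulse types. The mean of TGFBR2 over the 4 arrays was 0.14 (95% interval -0.06 to 0.33, adjusted p = 0.309). With median centring in place of loess it lay below 0 for ECT (-0.07) and EGT (-0.11), so its direction depends on the normalization. TGFBR3, the co-receptor betaglycan, had 0.01 on ECT array 1 and -0.04 on EGT array 2.

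Among the SMADs, SMAD3, which carries the TGF-beta signal, had 0.23 and -0.07 with ECT pulses, and 0.25 and 0.11 with EGT pulses (mean 0.13, 95% interval -0.07 to 0.33, adjusted p = 0.347). SMAD6, which inhibits BMP signalling, had -0.38 and 0.20 with ECT pulses, and -0.15 and 0.13 with EGT pulses. The arrays numbered 1 lay below 0 and those numbered 2 above it, and the mean was -0.05 (adjusted p = 0.803). With median centring all 4 values of SMAD6 lay below 0 (-0.65, -0.01, -0.41 and -0.02, mean -0.27). SMAD1, which carries BMP signals, was above 0 on the 3 arrays that measured it, at 0.43 on ECT array 1 and 0.10 and 0.27 on the EGT arrays. Its EGT mean of 0.18 had an adjusted p of 0.451, and was 0.37 without background correction, 0.50 with plain subtraction and 0.40 with median centring. SMAD1 was dim, with 2.16 to 4.00 times background in exposed cells and 3.03 to 9.78 times in untreated cells.

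WNT2 was the brightest member. Its spots had a median intensity of 18700 and 25300 in ECT-exposed cells and 18500 and 19700 in EGT-exposed cells, against 41300, 32300, 40400 and 29000 in untreated cells on the same arrays. Only 20 of the 1164 oligonucleotides measured on all 4 arrays were brighter. The other WNT ligands were dimmer, WNT1 at 33.2 to 53.0 and WNT2B at 4.05 to 6.10 times background in exposed cells, against 78.9 to 173 and 6.80 to 12.7 times in untreated cells. WNT1 had log2 ratios of 0.08 and -0.01 with ECT pulses, and -0.11 and -0.23 with EGT pulses. WNT2B had 0.26 and 0.11 with ECT pulses, and -0.08 and 0.27 with EGT pulses. WNT2B had the second largest absolute mean of the 12 members, 0.14, which did not pass the test (95% interval -0.07 to 0.35, adjusted p = 0.328).

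LRP6, the WNT co-receptor, had the lowest ratio of any member measured on all 4 arrays. It had -0.50 and -0.53 with ECT pulses, and -0.20 and -0.37 with EGT pulses. All 4 arrays lay below 0, and the ECT arrays lay below both EGT arrays. Its 4 spots per array were bright, at 214 to 319 times background in exposed cells and 592 to 914 times in untreated cells, and 15 of the 16 spots gave a ratio below 0. The spots of an array received the same RNA, so they are not independent and add no replicates to the 4 arrays. The ECT mean was -0.51 (95% interval -0.76 to -0.27), a level 1.43-fold lower in exposed cells, and the EGT mean was -0.29 (-0.51 to -0.06), 1.22-fold lower. Over both pulse types the mean was -0.40 (SE 0.07, 95% interval -0.57 to -0.23), 1.32-fold lower.

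The ratio of LRP6 did not pass the adjusted threshold of 0.05. The adjusted p from limma was 0.190 for ECT, 0.267 for EGT and 0.0543 for both pulse types, and it ranged from 0.00768 to 0.347 for both pulse types over 16 alternative settings. It was under the threshold in 4 of the 16. The direction was the same in all 16, but it could not change in those that left out an array or fitted the replicate number. By unadjusted p LRP6 ranked 27 of 1164 oligonucleotides, and its mean was the 68th lowest, so ratios of this size were found for many oligonucleotides. LRP6 was itself bright, with 61 oligonucleotides brighter, and the loess correction made its mean less negative (-0.59 with median centring and -0.40 with loess).

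**Figure D2:**
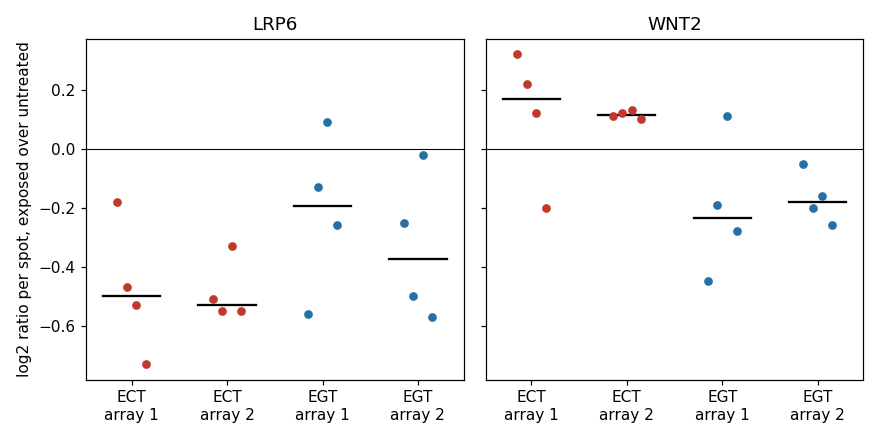
Log2 ratio of exposed over untreated cells for each of the 4 spots of LRP6 (left) and WNT2 (right) on each array, with a bar at the median of the spots. For LRP6, 15 of 16 spots lie below 0. For WNT2, 7 of 8 ECT spots lie above 0 and 7 of 8 EGT spots below it. The spots of an array are not independent.

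The ratios of the Frizzled receptors lay on both sides of 0. FZD7 had 0.33 and 0.02 with ECT pulses, and -0.30 and 0.23 with EGT pulses, the widest range of the 12 members (0.62). FZD5 had -0.08 and 0.19 on the ECT arrays and -0.02 on each EGT array. Their means of 0.07 and 0.02 had adjusted p of 0.716 and 0.900. SFRP1, a secreted protein that binds WNT ligands and Frizzled receptors, had -0.07 on ECT array 1 and 0.03 and -0.10 on the EGT arrays.

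The cytoplasmic components lay close to 0 after loess. GSK3B, the kinase that phosphorylates beta-catenin, was bright (56.4 to 123 times background in exposed cells, against 155 to 314 times in untreated cells) and had -0.14 and -0.15 with ECT pulses, and 0.05 and -0.14 with EGT pulses. Its mean was -0.09 (95% interval -0.27 to 0.08, adjusted p = 0.435). With median centring GSK3B had -0.56 and -0.39 for ECT and -0.25 and -0.38 for EGT, and that mean of -0.39 passed the adjusted threshold. APC, the scaffold of the degradation complex, had -0.13 and -0.04 with ECT pulses, and -0.04 and -0.02 with EGT pulses, with the smallest spread of the 12 members (SD 0.05). Only 2 or 3 of its 8 spots were kept on each array, and with median centring its ratios were all above 0 (0.37, 0.36, 0.30 and 0.17). With no filter on dim spots (0.03, 0.02, -0.01 and 0.03) and in the authors' table (0.13, 0.07, -0.02 and 0.06) 3 of 4 arrays lay above 0, so the sign of APC depended on the processing. DVL1, a Dishevelled protein, had -0.19 on ECT array 1 and 0.09 and -0.08 on the EGT arrays, and AXIN2, a component of the complex and also a transcriptional target of WNT signalling, was measured on EGT array 2 alone (0.03).

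**Figure D3:**
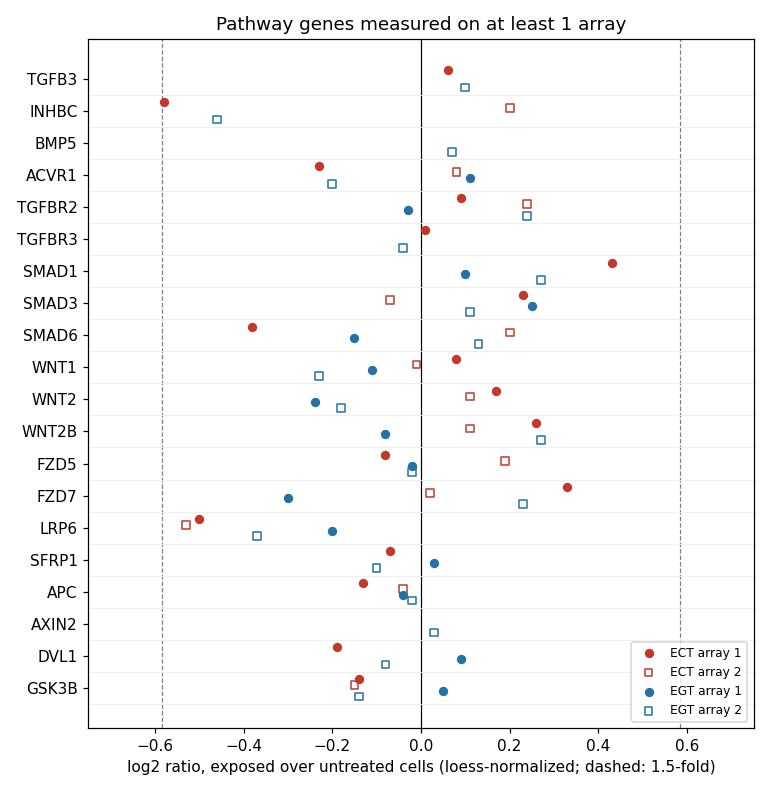
Log2 ratio of exposed over untreated cells of the 20 pathway genes measured on at least 1 array, with 1 point per array and dashed lines at 1.5-fold (0.585). LRP6 lies below 0 on all 4 arrays at -0.20 to -0.53, and no point lies beyond a dashed line.

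With loess and normexp no member reached 1.5-fold on any array (0 of 18, 13, 15 and 20 measured), and 9% and 2.24% of all measured oligonucleotides did so on the ECT arrays (1 and 2), and 1.29% and 4.68% on the EGT arrays. Other settings did put members past it on some arrays. SMAD1 had 0.74 on ECT array 1 and 0.67 on EGT array 2 with plain background subtraction. INHBC had 0.68 on EGT array 1 in the authors' table. With median centring INHBC, SMAD6 and LRP6 passed it on ECT array 1 at -0.95, -0.65 and -0.74. INHBC then also passed it on EGT array 2 (-0.64), and LRP6 on ECT array 2 (-0.64) and EGT array 2 (-0.60). LRP6 thus met 1.5-fold on both ECT arrays in that setting. The shares of all oligonucleotides past 1.5-fold are given for loess and normexp only. Whether members passed it more often than others in these settings can therefore not be read from these values. With loess and normexp, requiring 1.5-fold or more in the same direction on both arrays of a pulse type found 0 of 13 members for ECT (0.935% of all oligonucleotides tested) and 0 of 15 for EGT (0.603%). The limma test with Benjamini-Hochberg adjustment over all oligonucleotides called 0 of 13 members for ECT (0% of all) and 0 of 15 for EGT (0% of all). For both pulse types together it called 0 of 12 members, against 0.687% of all. At an unadjusted p under 0.05, LRP6 was the only member called, for ECT (1 of 13, against 16.4% of all), for EGT (1 of 15, against 15.7%) and for both (1 of 12, against 28.1%). Ratios of the same sign on all 4 arrays were found for LRP6 and, under the loess setting, APC, 2 of 12 members against 38% of all oligonucleotides. Both lay below 0 on all 4 arrays, as did 20.2% of all. With loess and normexp each of these shares of members was lower than that of all oligonucleotides or equal to it. Each rests on at most 2 genes, so no difference from all oligonucleotides can be read from them.

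The 95% intervals are those of mean log2 ratios with loess and normexp, and single arrays can lie outside them. They take in the spread between arrays, not that between settings. With median centring the means of LRP6 (-0.59), GSK3B (-0.39), WNT1 (-0.37), TGFBR2 (-0.09) and APC (0.30) lay outside their intervals for both pulse types together. For both pulse types together the intervals of all 12 members lay within 1.5-fold either way, the lowest bound being -0.57 (LRP6) and the highest 0.35 (WNT2B). For EGT all 15 intervals lay within 1.5-fold (-0.51 for LRP6 to 0.45 for SMAD3). For ECT the intervals of LRP6 and INHBC reached beyond it, and those of the other 11 did not.

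The members as a list lay near the centre of the arrays. The median log2 ratio was 0.03 for ECT, with 7 of 13 members above 0, and -0.03 for EGT, with 5 of 15 above 0, while the medians over all oligonucleotides were -0.02 and -0.01. The ECT median of the members was 0.08 without ECT array 1, -0.03 without ECT array 2 and -0.07 with median centring, so its sign was not stable. The median absolute ratio was 0.14 for ECT and 0.05 for EGT, against 0.13 and 0.12 over all. The mean SD between the 2 ECT arrays was 0.17 for the members and 0.17 for all oligonucleotides, and between the 2 EGT arrays 0.14 for both. Within the members the ECT arrays spread more in the TGF-beta and BMP branch (mean SD 0.30, 5 genes) than in the WNT branch (0.09, 8 genes), the widest being INHBC and SMAD6.

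The difference between ECT and EGT pulses was tested directly. Both are set against cells labelled untreated, but the labels do not say whether the same untreated extract was on every array, so a difference between untreated extracts would be part of it. WNT2 had the largest difference of the 12 members. It had 0.17 and 0.11 with ECT pulses, and -0.24 and -0.18 with EGT pulses, so the pulse types lay on opposite sides of 0. The difference was 0.35 (SE 0.14, 95% interval 0.02 to 0.68), or 1.27-fold, and larger than the SD of 0.04 between the arrays of either pulse type. It did not pass the adjusted test (unadjusted p = 0.0402, adjusted p = 0.989 from limma), and neither did its ECT mean of 0.14 (adjusted p = 0.488) or its EGT mean of -0.21 (adjusted p = 0.319). The ECT mean was 0.36 with no filter on dim spots and 0.31 in the authors' table, where the EGT mean was -0.09. The spots of WNT2 were spread as far within some arrays as the means lay apart, from -0.20 to 0.32 on the ECT arrays and from -0.45 to 0.11 on the EGT arrays.

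**Figure D4:**
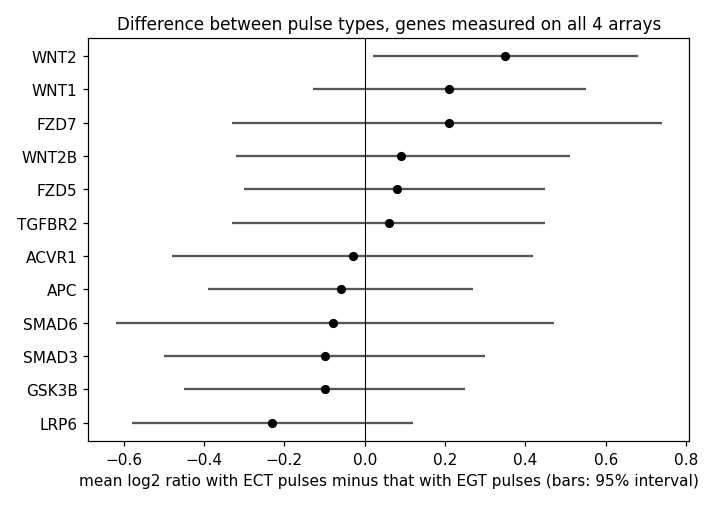
Mean log2 ratio with ECT pulses minus that with EGT pulses for the 12 members measured on all 4 arrays, with 95% intervals from limma. The interval of WNT2 (0.02 to 0.68) is the one that does not include 0.

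Of the 12 members, 1 had both ECT arrays on the other side of 0 from both EGT arrays (WNT2), against 6.44% of all oligonucleotides. By adjusted p 0 of 12 differed between the pulse types (0% of all), and by unadjusted p under 0.05 WNT2 alone (2.66% of all). The difference was 0.21 for WNT1 (95% interval -0.13 to 0.55), 0.21 for FZD7 (-0.33 to 0.74) and -0.23 for LRP6 (-0.58 to 0.12). For FZD7, WNT2 and SMAD6 the interval reached beyond 1.5-fold, so a difference of that size lies within their intervals.

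The authors' own normalized table kept dimmer spots and held values for more members, 16 members for ECT and 25 for EGT on both arrays. With the same test it called 0 of 16 members for ECT (0% of all), 0 of 25 for EGT (0.499%), 0 of 16 for both together (4.75%) and 0 of 16 for the difference (0%). LRP6 had -0.42 and -0.46 with ECT pulses, and -0.17 and -0.33 with EGT pulses in that table, a mean of -0.34 (adjusted p = 0.0655). The largest EGT mean among the members was that of WNT3, at 0.56 and 0.42 on the 2 EGT arrays (mean 0.49, adjusted p = 0.169). WNT3 is a ligand of beta-catenin signalling, and here its signal was 1.52 and 2.53 times background in exposed cells and 2.31 and 2.30 times in untreated cells on those arrays. SMAD1 was above 0 on all 4 arrays of the table, at 0.52 and 0.21 for ECT and 0.16 and 0.42 for EGT (mean 0.32, adjusted p = 0.0940).

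Other genes of the same pathways were taken from lists of 113 symbols outside the rule (modulators and cofactors, target genes, further WNT components and Notch components). Of these, 31 genes with 35 oligonucleotides were on the array and 17 oligonucleotides were measured on all 4 arrays. None passed the adjusted threshold in limma, in either direction, for ECT, EGT or both together. At an unadjusted p under 0.05 for both pulse types, 3 were higher and 1 lower, 4 of 17 against 28.1% of all oligonucleotides. Those higher were 3 of the 7 oligonucleotides of WNT target genes measured on all 4 arrays, whose median was 0.09. Of the same list FOSL1 (-0.16) and BIRC5 (-0.05) had means below 0, and JUN, MYC and MMP7 were measured on none. CCND1, the cyclin of the G1 phase, had 0.86 and 0.22 with ECT pulses, and -0.15 and 0.60 with EGT pulses (mean 0.38, adjusted p = 0.174), and its arrays do not share a sign. MITF, the master regulator of the melanocyte lineage, had 0.08 and 0.19 with ECT pulses, and 0.12 and 0.40 with EGT pulses (mean 0.20, adjusted p = 0.172). The cell surface receptor CD44 has 3 oligonucleotides, whose means were 0.28 (adjusted p = 0.0899), 0.09 and 0.06. FOXH1, a nuclear partner of SMAD2 and SMAD3, was the lower one, with -0.25 and -0.15 with ECT pulses, and -0.12 and -0.21 with EGT pulses (mean -0.18, adjusted p = 0.158). CTNNB1, which encodes beta-catenin, was measured on 3 arrays, at 0.22 on ECT array 1 and -0.04 and -0.16 on the EGT arrays. Among the target genes of TGF-beta and BMP, ID3 had -0.37 and 0.05 with ECT pulses, and 0.09 and 0.14 with EGT pulses, and ID1, CDKN1A, MYC and TIMP1 were measured on none. Of the Notch lists, 3 genes were on the array and 1 (ADAM10) was measured, on EGT array 2 alone (0.02), so the oligonucleotides with a symbol give no comparison for that pathway, and the 1059 without one were not used.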

How the data were processed

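Exposed (Cy5) and untreated (Cy3) RNA was hybridized together on 4 arrays of 70-mer oligonucleotides. The deposited scanner files give the median intensity and local background of each spot, extracted by the authors with Array-Pro Analyzer and neither subtracted nor normalized. The deposited table holds the authors' log2 ratios after bad spots were removed and LOWESS was fitted in Acuity, as medians over replicate spots, and was used as an alternative. The software was R 4.3.3 and limma 3.58.1. Spots with local background over 1000 (4, all on EGT array 1) were left out, normexp with offset 50 was applied, and spots were kept with both channels at least 2 times background, at most 65000 and with a background SD of at most 0.3 of the signal. Loess within arrays used span 0.3 and 4 iterations. An oligonucleotide needed 2 kept spots and took their median. limma (lmFit, eBayes) was fitted to all 4 arrays with 1 coefficient per pulse type, and p-values were adjusted by Benjamini-Hochberg over the 1176 (ECT), 1327 (EGT) or 1164 (all arrays) oligonucleotides measured. The number of arrays limits the precision.

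Values on every array are given for the 8 members with the largest absolute mean, the 4 with the largest difference between pulse types and the 4 with the smallest spread, any past the 1.5-fold rule and at least 1 gene per role. Members, lists and tests were chosen with earlier results of these data known, and genes outside the members were named with their values in view. The platform annotation gave the symbols (1989 of 3048 oligonucleotides, all matched to RefSeq of GRCh38.p14). The steps were tested on simulated data for the direction and size of known changes and for false calls. The noise was drawn separately for each array, so deviations shared between arrays were not part of it. Whether 1.5-fold changes would be called was not a criterion. Alternatives changed the background correction, the filter on dim spots, the normalization, the summary of spots, the arrays left out and the replicate block.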

Additional observations from a re-analysis of the deposited data

Results flagged for a closer look

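WNT2 was set apart because both ECT arrays lay on one side of 0 and both EGT arrays on the other. The ECT minus EGT difference of its mean log2 ratios was 0.35 (95% interval 0.02 to 0.68, unadjusted p = 0.0402, adjusted p = 0.989 from limma over 1164 oligonucleotides), and 6.44% of all oligonucleotides showed such a split. It kept its sign in 16 of 16 alternatives, at 0.30 to 0.51. Leaving out an array could not reverse it, because each pulse type lay wholly on its own side of 0. The fits with a replicate block leave the estimate as it is (0.35). In the alternatives that used all arrays the adjusted p from limma was 0.808 or higher. The difference between the pulse types is thus not past the adjusted threshold under any setting run.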

How the results depend on the processing

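LRP6 kept its direction for ECT, EGT and both pulse types under all 16 alternatives. All its arrays lay below 0, so leaving out an array could not change this, and the fits with a replicate block leave the estimates as they are. Only the alternatives that changed the processing could have reversed it. Of 336 values of the members other than LRP6 and WNT2, 299 moved by less than the spread between arrays and 37 by more. The 336 include fits that left out an array, which cannot move a mean by more than that spread. All 37 came from the other settings, so the 299 overstate the stability. That spread rounds to 0 for FZD5 with EGT pulses and GSK3B with ECT pulses, so very small shifts counted there. Median centring in place of loess changed the most. With it WNT1 (-0.30) and FZD7 (-0.09) lay below 0 for ECT, APC lay above 0 for ECT (0.36) and EGT (0.24), and SFRP1 above 0 for EGT (0.13). It called 2 members for ECT (LRP6 at -0.69 and GSK3B at -0.48) and 1 for EGT (LRP6 at -0.48). For both it called 4 (LRP6 at -0.59, APC at 0.30, WNT1 at -0.37 and GSK3B at -0.39). It also put 1 member (LRP6) past the 1.5-fold rule for ECT, for which no share of all oligonucleotides is given. It does not correct for brightness, and called 117 oligonucleotides of all for ECT (22 higher, 95 lower), 92 for EGT (5 higher, 87 lower) and 401 for both (115 higher, 286 lower), against 0, 0 and 8 (5 higher, 3 lower). Scaling between arrays called 1 member for both (LRP6, adjusted p = 0.0403) and 63 of all (24 higher, 39 lower). The other counts of all oligonucleotides for both pulse types were 55 without background correction (22 higher, 33 lower), 60 in the authors' table (22 higher, 38 lower; 9 for EGT), 5 with the mean of spots, and 0 with normexp on all spots or with no filter on dim spots. The cause was not tested.

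The EGT median of the members (-0.03) was -0.01 with normexp on all spots, -0.02 without background correction, with the mean of spots and with at least 1 kept spot, 0.01 with no filter on dim spots, -0.04 with median centring and 0.05 in the authors' table, which hold different numbers of members. Leaving out 1 array gave -0.03 to -0.02 for it and called 0 members each time. The 8 calls of all oligonucleotides for both pulse types became 0 without ECT array 1, EGT array 1 or EGT array 2 and 83 without ECT array 2, and the adjusted p of LRP6 for both was 0.0609 to 0.347. A lone array was assumed to vary like the others.

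With the replicate number as a block, 1 member was called for ECT and 1 for both pulse types (LRP6, adjusted p = 0.0367 and 0.00921), and 70, 41 and 139 oligonucleotides of all for ECT, EGT and both. The numbers come from the titles, which do not say what same-numbered arrays share. Same-numbered arrays deviated in opposite ways (r = -0.444 across 1164 oligonucleotides, which are not independent). With 2 arrays per pulse type this also means that ECT array 1 tended to deviate in the same way as EGT array 2. The main fit treated the 4 arrays as independent, and a shared source of these deviations was not tested. With crossed numbers, added after the data were seen, 1 member and 134 oligonucleotides of all were called for both pulse types and 0 for ECT and EGT.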

Other observations

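The 9 oligonucleotides at least 5 times brighter over background on ECT array 1 and EGT array 2 than on ECT array 2 and EGT array 1, in exposed and in untreated cells alike, included INHBC and 7 others with a symbol (PSMD2, CD34, CA5A, INSM1, CEBPB, SIPA1 and RAP1GAP). This split follows neither the pulse type nor the replicate number.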
